A study of Mus musculus with 32 samples.

Results

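The 9 catenin genes of mouse melanoma described here are Ctnnb1, Ctnna1, Ctnna2, Ctnna3, Ctnnd1, Ctnnd2, Arvcf, Ctnnal1 and Ctnnbip1, chosen by gene symbol among the 50600 genes counted in each tumour. RNA was sequenced from 32 primary tumours, 8 from each genotype and sex. Tumours named Ecad carried the label Tyr::NrasQ61K;Cdkn2a-/+;°/°;Cdh1F/F and tumours named ΔEcad the label Tyr::NrasQ61K;Cdkn2a-/+;Tyr::NRAS/°;Cdh1F/F, where the study's methods give the Cre transgene Tyr::CreA at the position that the label fills with Tyr::NRAS. All 4 groups thus shared an oncogenic NRAS transgene driven by the tyrosinase promoter, the loss of 1 Cdkn2a copy and floxed Cdh1, the gene of E-cadherin. The Cre is driven by the same melanocyte promoter, so skin, vessel and immune cells in a ΔEcad tumour would be expected to keep Cdh1, which was not measured here. The ages of the mice were not given, and nothing in the labels says whether tumours of a group came from separate animals, so p-values measure the spread between these tumours.

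Catenins link cadherins to the cell's interior. Beta-catenin and its close relative plakoglobin bind the distal cadherin tail, alpha-catenins join that complex to actin, and the p120 family (p120-catenin, delta-catenin and ARVCF) binds the tail near the membrane and keeps the cadherin at the surface. Beta-catenin that is not held at a junction is degraded after phosphorylation by the destruction complex of APC, axin and GSK3, or enters the nucleus and acts with TCF and LEF factors on Wnt targets. Ctnnal1 encodes alpha-catulin, an alpha-catenin relative, and Ctnnbip1 encodes ICAT, which binds beta-catenin and blocks its pairing with TCF, so neither is a direct cadherin partner. Because E-cadherin holds beta-catenin at the membrane, the comparison of genotypes asks whether catenin RNA differed where Cdh1 was deleted, and the study's interest in sex adds the comparison of females with males.

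Total counts per tumour ranged from 24036333 to 63923086. Cdh1 was at 25.0 to 281.9 TPM (transcript level after scaling by gene length and by tumour total) in Ecad males and at 0.79 to 65.2 TPM in ΔEcad males. The male ranges overlapped, with ΔEcad male 3 above Ecad males 7 and 8. The female genotypes overlapped over most of their range, Ecad running from 2.16 to 151.2 TPM and ΔEcad from 0.17 to 143.2 TPM. A direction in females thus depends on the labels alone. These counts are per gene and do not resolve the deleted part. Keratinocyte content differed widely, with the keratin gene Krt5 at a median of 0.125 TPM in Ecad females against 1829 TPM in ΔEcad females, and of 1123 TPM in Ecad against 67.1 TPM in ΔEcad males, and a lowest value of 0 TPM in every group. The library labelled ΔEcad male 2 had 0 counts of the Y-linked genes examined and 6.41 TPM of Xist. In the library labelled ΔEcad male 7, 10 melanocytic markers summed to 38.4 TPM against at least 6796 TPM in the other 31 tumours, and in ΔEcad female 3 the endothelial score (log2 CPM averaged over 7 markers, where CPM is the count scaled by the library total but not by gene length) was -2.56, the lowest of all. No member was called when these 3 libraries were left out together, and values without them stand beside the results that they moved most. That fit called 569 of 18072 genes between female genotypes and 0 between male genotypes. Between the sexes it called 13 in Ecad and 8 in ΔEcad tumours, and it called 0 in the interaction of genotype and sex. In bulk tissue, fewer cells of a type and less RNA per cell cannot be told apart.

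Beta-catenin and alpha-E-catenin RNA dominated, and the alpha-catenins of brain and of heart and testis were close to absent. Mean TPM over the 32 tumours was 715 ± 349 for Ctnnb1, 327 ± 101 for Ctnna1, 34.6 ± 19.7 for Ctnnbip1, 20.04 ± 8.06 for Ctnnd1, 6.69 ± 5.16 for Ctnnal1, 5.47 ± 3.65 for Arvcf and 3.34 ± 4.41 for Ctnnd2 (SD, n = 32). Ctnna3 reached at most 0.6 TPM and Ctnna2 at most 0.1 TPM. Neighbours in this order were well apart at its top, with Ctnnb1 above Ctnna1 in 31 of 32 tumours and Ctnna1 above Ctnnbip1 in 32 of 32. Ctnnbip1 lay above Ctnnd1 in 27 tumours and Ctnnd1 above Ctnnal1 in 31. Ctnnal1 and Arvcf did not differ beyond their spread, since Ctnnal1 was the higher in 14 tumours and the lower in 18, and Arvcf lay above Ctnnd2 in 24.

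The length used for scaling matters for 2 of these levels. The deposited TPM implied a length of 3698 bases for Ctnna1 and 5916 bases for Ctnnd2, which is 0.576 and 0.573 of their exonic length in the GENCODE M21 annotation, while the lengths of Ctnnb1, Ctnnd1, Ctnnal1 and Ctnnbip1 matched it. With the longer lengths, Ctnnb1 lay above Ctnna1 in 32 of 32 tumours and Arvcf above Ctnnd2 in 28, so the order stayed. Ctnnd1 has a further limit, because 61.2% of its exonic length is shared on the same strand with the gene model Gm28635, which had 0 counts in all 32 tumours, and whether reads in the shared exons were dropped was not tested.

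**Figure D1:**
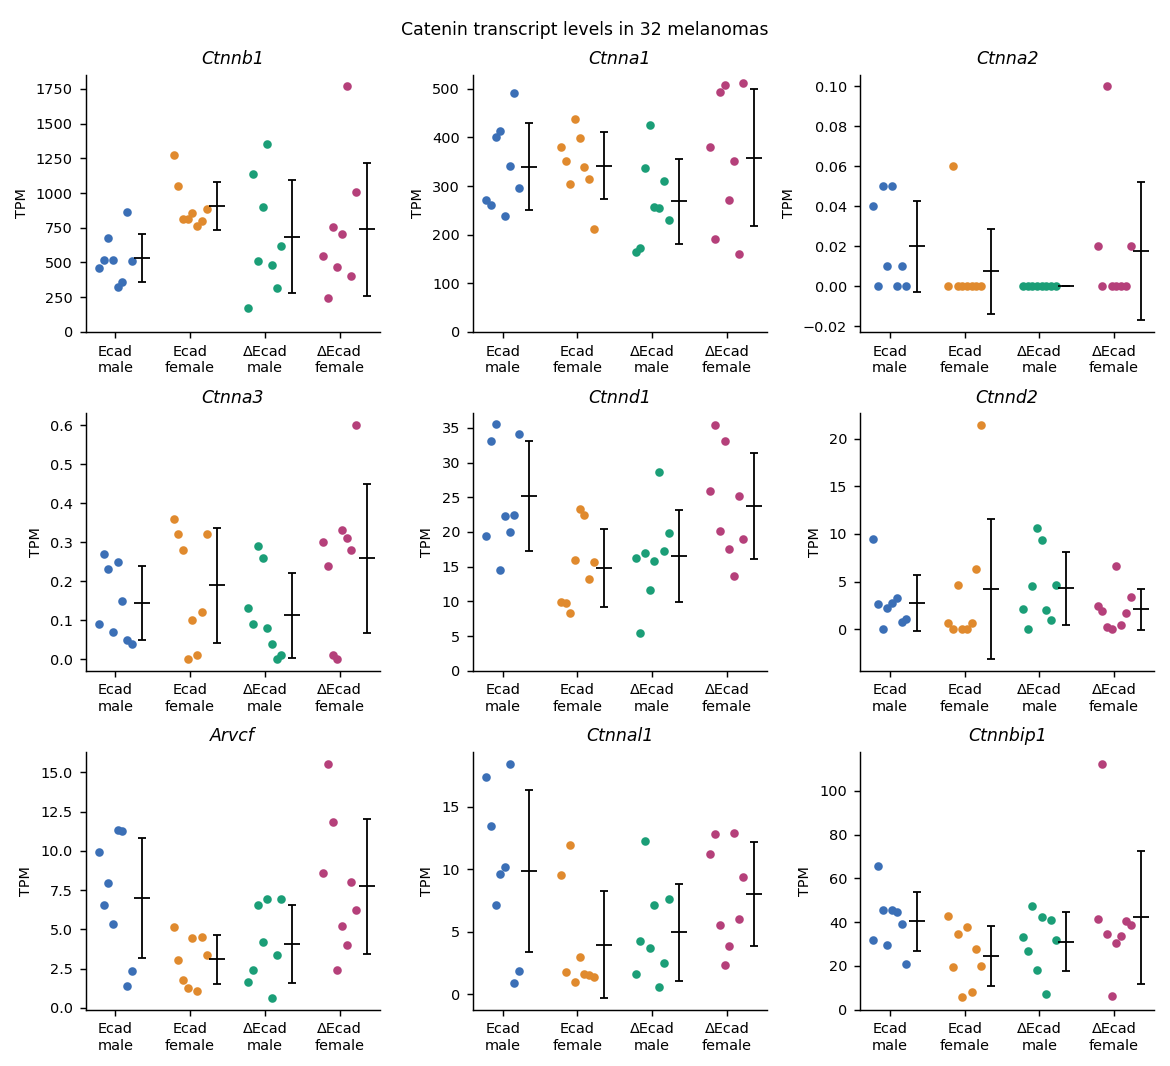
Level of each catenin gene in TPM (vertical axis, linear, a scale of its own in each panel) in the 8 tumours of each group, with coloured points in order of tumour number and the black bar giving the mean ± SD. Ctnnb1 and Ctnna1 lie far above the other genes, Ctnna2 and Ctnna3 stay at or under 0.6, and the groups overlap in every panel.

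Ctnnb1 (ENSMUSG00000006932, chromosome 9, 120929216 to 120960507, plus strand, GRCm38) encodes beta-catenin and was the most abundant catenin transcript in every group. In Ecad females it was at 763.8, 835.8 and 1277 TPM (lowest, median and highest of 8 tumours). In Ecad males the corresponding levels were 323.2, 514.0 and 866.9 TPM. Every Ecad female tumour lay above the median of the Ecad males, 3 of 8 lay above all of them, and the ranges overlapped. The ΔEcad groups were wider, at 172.0, 566.7 and 1353 TPM in males and at 246.5, 625.9 and 1773 TPM in females, where 6 of 8 female tumours lay below every Ecad female and ΔEcad female 6 lay above all of them. The coefficient of variation was 19.1% (female) and 32.7% (male) among Ecad tumours and 65.0% (female) and 59.6% (male) among ΔEcad tumours, and this difference in spread was not tested. Part of its exons (14.6% of their length) is overlapped on the opposite strand by Ulk4, which adds uncertainty where the counting did not use the strand.

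Ctnna1 (ENSMUSG00000037815, chromosome 18, 35118859 to 35254779, plus strand) encodes alpha-E-catenin and varied least of all 9 genes, with a coefficient of variation of 30.99% over all tumours. Its lowest, median and highest levels were 237.8, 318.7 and 492.4 TPM in Ecad males and 211.0, 345.0 and 438.6 TPM in Ecad females. In the ΔEcad tumours they were 164.1, 255.9 and 425.4 TPM in males and 161.1, 366.1 and 511.9 TPM in females. The 4 groups overlapped over most of their range. Within a tumour, the ratio of Ctnnb1 to Ctnna1 on the TPM scale ranged from 0.92 to 6.58 with a median of 1.93, and its median was 2.60 in Ecad females and 1.69 in Ecad males. The highest ratio came from the library labelled ΔEcad male 2 and the lowest from ΔEcad female 4.

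The other alpha-catenins were at the edge of detection. Ctnna2 (alpha-N-catenin, the form of the nervous system) had 0 to 10 counts and was at or under 3 counts, the limit that a count of 0 allows, in 29 of 32 tumours, including all 8 ΔEcad males, so it was not tested. Ctnna3 (alpha-T-catenin, known from heart and testis) had 0 to 53 counts, with 25 tumours over 3 counts and the highest level, 0.60 TPM, in ΔEcad female 8. At this depth neither gene could show a difference of moderate size between groups.

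Ctnnd1 (ENSMUSG00000034101, chromosome 2, 84600071 to 84650765, minus strand) encodes p120-catenin. Its lowest, median and highest levels were 14.4, 22.4 and 35.6 TPM in Ecad males against 8.26, 14.4 and 23.2 TPM in Ecad females. In ΔEcad tumours the order of the sexes was the other way round, with 5.42, 16.6 and 28.6 TPM in males against 13.7, 22.6 and 35.4 TPM in females. The lowest value of all came from the library labelled ΔEcad male 2. Of the 8 ΔEcad females, 4 lay above every Ecad female, and the groups overlapped.

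Arvcf (ENSMUSG00000000325, chromosome 16, 18348182 to 18407076, plus strand) is a p120 relative first known from the chromosomal region lost in velocardiofacial syndrome. It was higher in most ΔEcad females than in Ecad females. The lowest, median and highest Ecad females were at 1.09, 3.24 and 5.17 TPM, and the corresponding ΔEcad females at 2.42, 7.12 and 15.5 TPM. Of the ΔEcad females, 6 of 8 lay above every Ecad female and none lay below them all. Males went the other way, with 1.39, 7.24 and 11.3 TPM in Ecad and 0.63, 3.79 and 6.93 TPM in ΔEcad tumours, and all 8 ΔEcad males lay below the Ecad male median.

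Ctnnd2 (ENSMUSG00000022240, chromosome 15, 30172593 to 31029341, plus strand) encodes delta-catenin, a form best known from neurons, and was the most uneven of the 8 members tested, with a coefficient of variation of 131.9% over all tumours. In males it ran from 0.02 to 9.45 TPM (Ecad) and from 0.04 to 10.6 TPM (ΔEcad), and in females from 0 to 21.4 TPM (Ecad) and from 0.05 to 6.62 TPM (ΔEcad). Ecad female 8 alone, at 21.4 TPM, lifted the Ecad female mean to 4.21 ± 7.35 TPM (SD, n = 8) over a median of 0.65 TPM. No group stood apart from the others.

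Ctnnal1 (ENSMUSG00000038816, chromosome 4, 56810935 to 56865188, minus strand) had its lowest, median and highest levels at 0.91, 9.88 and 18.4 TPM in Ecad males against 0.54, 3.96 and 12.3 TPM in ΔEcad males. Among females they were 1.00, 1.69 and 11.9 TPM for Ecad and 2.30, 7.68 and 12.9 TPM for ΔEcad. Among Ecad females, 2 tumours, numbers 1 and 3, were at 9.54 and 11.9 TPM, and the other 6 stayed at or under 2.93 TPM. All 8 ΔEcad females lay above the Ecad female median, and the 2 groups overlapped.

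Ctnnbip1 (ENSMUSG00000028988, chromosome 4, 149518236 to 149566437, plus strand) was at 21.0, 42.0 and 65.7 TPM in Ecad males against 7.19, 32.7 and 47.6 TPM in ΔEcad males. Females were at 5.67, 23.8 and 42.6 TPM in the Ecad and at 6.42, 36.7 and 112.4 TPM in the ΔEcad group. The highest value, in ΔEcad female 2, was far above the next of its group at 41.7 TPM. Of its exonic length, 25.8% is overlapped on the opposite strand by Gm13066.

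No catenin gene was called in any comparison. Differences were tested in 1 model of all 32 tumours (edgeR quasi-likelihood test, 17717 genes, 8 of the 9 members), and a call needed p under 0.05 after Benjamini-Hochberg adjustment over all genes together with an absolute log2 fold change over 1. Between female genotypes, 0 of 8 members were called where 1.2% of all genes were called, and 1 member had an unadjusted p under 0.05, as did 15.3% of all genes. Between male genotypes, 0 of 8 were called against 0% of all genes, with 0 members and 10.2% of all genes at an unadjusted p under 0.05. Between the sexes 0 of 8 were called in Ecad tumours, against 0.0508% of all genes, with 3 members and 16% of all genes at an unadjusted p under 0.05. In ΔEcad tumours 0 of 8 were called, against 0.0395% of all genes, with 0 members and 8.81% of all genes at that level. The interaction, which asks whether the genotype difference depended on sex, called 0 of 8 members and 0% of all genes, with 2 members and 17.7% of all genes at an unadjusted p under 0.05. By DESeq2 1 member, Arvcf, was called between female genotypes and in the interaction, where 7.23% and 6.91% of all genes were called, and none in the other 3 comparisons, where the share of all genes was 0.119% (male genotypes), 5.77% (sexes in Ecad) and 0.135% (sexes in ΔEcad). With quality weights, limma voom called no member in any comparison, against 0.00564% of all genes between female genotypes, 0.519% and 0.0339% between the sexes in Ecad and ΔEcad, and 0% in the other 2.

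Between female genotypes Arvcf was the member with the smallest p. The difference of ΔEcad from Ecad females was 1.27 on the log2 scale (SE 0.44), with an unadjusted p of 0.0066 that became 0.112 after adjustment over all genes (edgeR). The adjusted p ranged from 0.0334 (DESeq2) to 0.638 over the alternatives, the largest being the fit with keratinocyte and melanocytic scores as covariates, in which the difference was 0.88 (SE 0.48). Without the 3 libraries named above it was 1.19 (SE 0.46, edgeR adjusted p 0.15), and without ΔEcad female 2, the highest tumour, 1.05 (edgeR adjusted p 0.294). Ctnnd1 differed by 0.64 (SE 0.31, edgeR adjusted p 0.329), Ctnnbip1 by 0.71 (SE 0.41, edgeR adjusted p 0.44) and Ctnnal1 by 0.87 (SE 0.59, edgeR adjusted p 0.535), none past the threshold. Without ΔEcad female 2 the Ctnnbip1 difference was 0.34 (edgeR adjusted p 0.86), and without Ecad female 3 the Ctnnal1 difference was 1.53 (edgeR adjusted p 0.165). With the marker scores as covariates Ctnnal1 was at 0.064 (SE 0.53), Ctnnbip1 at 0.11 (SE 0.41) and Ctnnd1 at 0.79 (SE 0.35). For Ctnnb1 the difference was -0.35 (SE 0.34) and for Ctnna1 0.01 (SE 0.22). The 8 members had a median of 0.50 with 6 of 8 above 0, beside a median of -0.02 over all genes tested. Over the same tumours the 10 keratinocyte markers had a median difference of 5.36, with all 10 higher in ΔEcad females and 9 at an unadjusted p under 0.05, and their summed level ran from 0.63 to 2115 TPM in Ecad and from 5.14 to 41839 TPM in ΔEcad females. The 7 skeletal muscle markers had a median difference of 3.08, 7 of 7 higher in ΔEcad females and 1 at an unadjusted p under 0.05, with sums of 3.13 to 5109 TPM and 4.61 to 27880 TPM. The 8 fibroblast markers had a median of 1.46, 8 of 8 higher and 4 at an unadjusted p under 0.05, with sums of 86.7 to 4214 TPM and 391.4 to 9190 TPM. All 10 melanocytic markers were lower in ΔEcad females, with a median of -0.69 and 1 at an unadjusted p under 0.05. All 7 endothelial markers were higher, with a median of 0.54 and 1 at that level. The covariate fit holds the keratinocyte and melanocytic scores, and the part of muscle, fibroblast and endothelial content in the catenin values was not tested.

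Between male genotypes the largest member difference in proportion to its error was that of Ctnnb1, at 0.56 (SE 0.34, edgeR adjusted p 0.554) with ΔEcad higher. Without the library labelled ΔEcad male 2 it was 0.32 (edgeR adjusted p 0.812), and without the 3 libraries that stand apart 0.46 (SE 0.34, edgeR adjusted p 0.691). Arvcf was at -0.53 (SE 0.43) and Ctnnal1 at -0.72 (SE 0.59), both the other way from the female difference. Ctnna1, Ctnnd1 and Ctnnbip1 were at -0.15 (SE 0.22), -0.28 (SE 0.31) and -0.04 (SE 0.41). Without the 3 libraries Ctnnd1 was at -0.086 (SE 0.32), Arvcf at -0.38 (SE 0.48), Ctnnal1 at -0.59 (SE 0.65) and Ctnna1 at -0.081 (SE 0.24). The median over all genes was 0.11 here and -0.16 for the interaction, and on log2(TPM + 1) these medians became -0.13 and 0.14, so differences of that size cannot be told from the scaling. The members' median was -0.10. The 10 keratinocyte markers had a median difference of -1.76, all 10 lower in ΔEcad males and 0 at an unadjusted p under 0.05. For the 7 skeletal muscle markers it was -2.48, all 7 lower and 1 at that level. Fibroblast markers went the other way, with a median of 0.62 and 7 of 8 higher. With the marker scores as covariates Ctnnal1 was at 0.0453 (SE 0.558) and Ctnnbip1 at 0.0346 (SE 0.382).

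Among Ecad tumours, the difference of females from males in Ctnnb1 was 0.81 on the log2 scale (SE 0.34), with an unadjusted p of 0.0225 and an edgeR adjusted p of 0.225. Its adjusted p was 0.0523 with limma voom and 0.987 with marker scores as covariates, and the difference stayed between 0.71 and 1.08 over the alternatives. Arvcf was at -1.10 (SE 0.44, edgeR adjusted p 0.204), Ctnnd1 at -0.68 (SE 0.31, edgeR adjusted p 0.278) and Ctnnal1 at -1.14 (SE 0.59, edgeR adjusted p 0.345). None of these passed the threshold. These values use the same Ecad female tumours as the female genotype comparison, so the opposite signs in the pair of comparisons are not independent. The keratinocyte markers had a median difference of -4.91 here, all 10 lower in females, and with the marker scores as covariates the Ctnnal1 difference was -0.03 (SE 0.60) and that of Arvcf -0.64 (SE 0.52). Among ΔEcad tumours the members' median was 0.22, and the difference nearest to the threshold was that of Arvcf, at 0.70 (SE 0.43, edgeR adjusted p 0.653), and at 0.48 (SE 0.49) without the 3 libraries.

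The interaction put Arvcf first again, at 1.80 (SE 0.61), with an unadjusted p of 0.0062 and an edgeR adjusted p of 0.106. Its adjusted p ranged from 0.0337 with DESeq2 to 0.691 with marker scores as covariates, where the value was 1.20 (SE 0.71). Without the 3 libraries that stand apart it was 1.58 (SE 0.67, edgeR adjusted p 0.181). Ctnnd1 was at 0.92 (SE 0.44, edgeR adjusted p 0.275), Ctnnal1 at 1.60 (SE 0.83, edgeR adjusted p 0.314) and Ctnnb1 at -0.91 (SE 0.48, edgeR adjusted p 0.318). With the marker scores as covariates Ctnnal1 was at 0.0185 (SE 0.84). The keratinocyte markers had a median interaction of 7.08, all 10 above 0, and the 7 skeletal muscle markers one of 5.76, all 7 above 0.

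**Figure D2:**
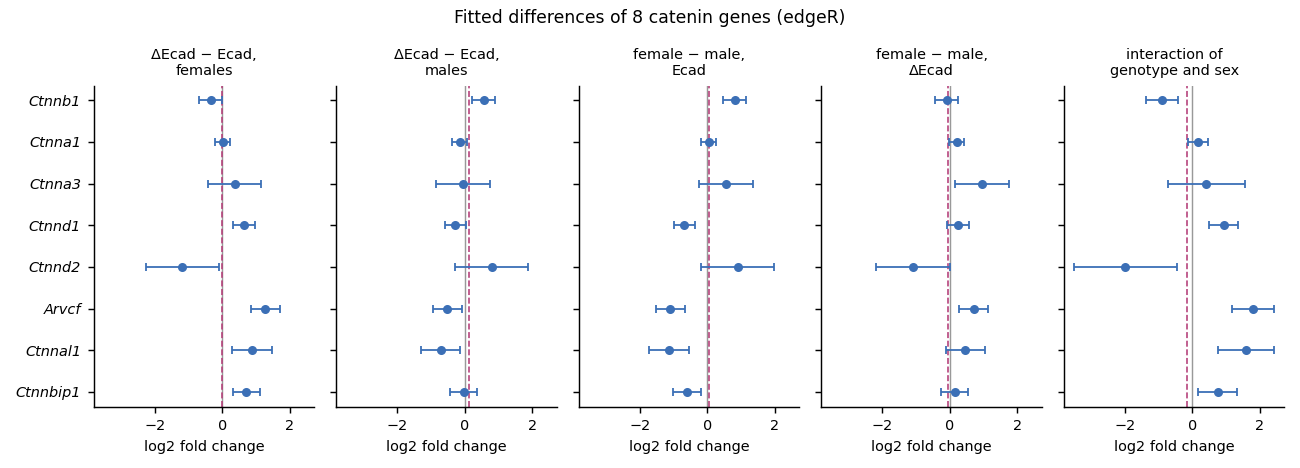
Fitted log2 fold change (horizontal axis) of the 8 tested catenin genes in the 5 comparisons, as points with bars of 1 SE. The solid line is 0 and the dashed line the median of all 17717 genes. Arvcf lies at 1.27 between female genotypes and at 1.80 in the interaction, and no gene passed the threshold.

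Ctnnal1, Arvcf and Ctnnbip1 rose and fell together over the tumours. Levels for this purpose were log2 CPM, and 28 pairs of members were tested with two-sided permutation tests (100000 resamples, Benjamini-Hochberg adjustment over the pairs). Ctnnal1 and Arvcf correlated with Pearson r = 0.762 (adjusted permutation p = 0.00028, raw p = 1e-05, the smallest the permutations can give) and Spearman rho = 0.691 (adjusted permutation p = 0.00112). Leaving out the 2 tumours farthest from the median of Ctnnal1 gave r = 0.668. Within groups r was 0.931 (Ecad) and 0.944 (ΔEcad) in males and 0.225 (Ecad) and 0.466 (ΔEcad) in females. Arvcf with Ctnnbip1 gave r = 0.690 and rho = 0.544 (raw permutation p 3e-05 and 0.0016, adjusted 0.00042 and 0.0112), r = 0.541 without the 2 farthest tumours, and 0.219, 0.733, 0.804 and 0.843 in the groups in the same order. Ctnnal1 with Ctnnbip1 gave r = 0.648 and rho = 0.602 (raw permutation p 7e-05 and 0.00034, adjusted 0.000653 and 0.00476), r = 0.506 without the 2 farthest tumours, and 0.234, 0.733, 0.71 and 0.778 in the groups. All 3 relations kept their sign in each of the 4 groups.

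Ctnnb1 went against Ctnnd1, its fellow cadherin partner, with r = -0.520 and rho = -0.541 (raw permutation p 0.00235 and 0.00159, adjusted 0.0132 and 0.0112). Without the 2 tumours farthest from the Ctnnb1 median r was -0.473. Within groups it was 0.372 (Ecad) and -0.532 (ΔEcad) in males and -0.320 (Ecad) and -0.818 (ΔEcad) in females, so the relation did not hold in Ecad males, and with values centred on group means the adjusted permutation p was 0.0895. Without the library labelled ΔEcad male 2, with the least Ctnnd1, it was 0.0517. Ctnnb1 and Ctnna1, which bind each other at the junction, were not related beyond the threshold (r = 0.276, raw permutation p = 0.126 and rho = 0.277, raw permutation p = 0.125), and r was 0.819 in Ecad males and -0.475 in Ecad females. Ctnna1 with Ctnnbip1 (r = -0.447, raw permutation p = 0.0101, adjusted 0.0472) and Ctnna3 with Ctnnbip1 (r = 0.528, raw permutation p = 0.00194, adjusted 0.0132) passed on r only. Their rho was -0.403 (raw permutation p = 0.0225, adjusted 0.126) and 0.338 (raw permutation p = 0.059, adjusted 0.184), their r without the 2 farthest tumours -0.320 and 0.517, and the counts of Ctnna3 were sparse. With 1 tumour left out, the first lost its call in 13 of 32 fits and the second in 2. Other pairs did not pass on r or on rho.

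**Figure D3:**
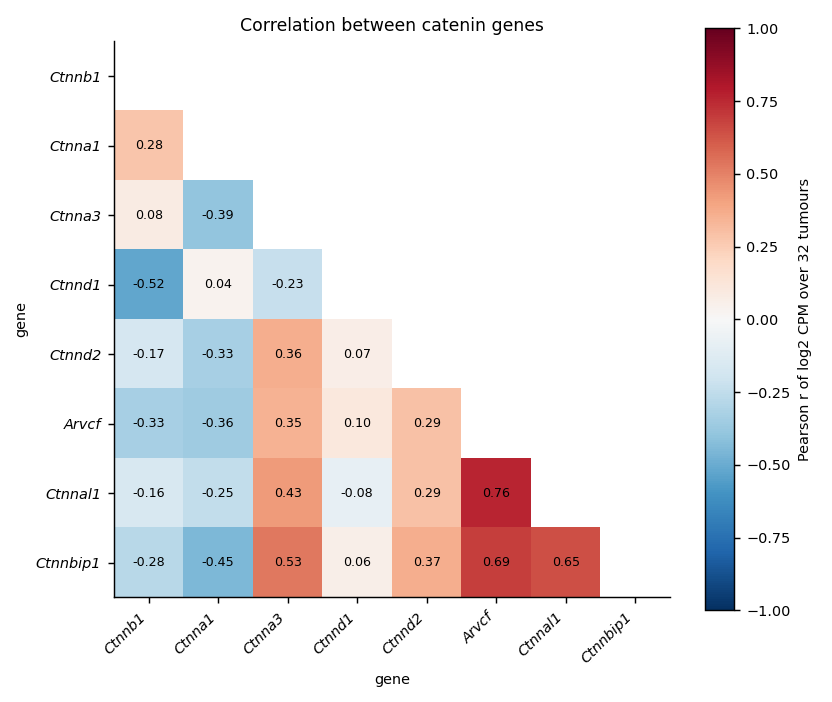
Pearson r of log2 CPM over 32 tumours between the 8 tested catenin genes, red for positive and blue for negative values. The block of Arvcf, Ctnnal1 and Ctnnbip1 holds the largest values, 0.65 to 0.76, and Ctnnb1 with Ctnnd1 the lowest, -0.52.

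The genes of that trio also followed the keratinocyte score, log2 CPM averaged over 10 keratinocyte markers. Over 16 relations of 8 members with the keratinocyte and melanocytic scores, Ctnnal1 gave r = 0.70 and rho = 0.747 with the keratinocyte score (raw permutation p 3e-05 and 2e-05, adjusted 0.00048 and 0.00032). Ctnnbip1 gave r = 0.581 and rho = 0.629 (raw permutation p 0.0002 for each, adjusted 0.0016 and 0.00107), and Arvcf r = 0.516 and rho = 0.616 (raw permutation p 0.00261 and 0.00019, adjusted 0.0104 and 0.00107). Without the 2 tumours farthest from the median score r was 0.662, 0.498 and 0.424 for these 3 genes in the same order. Within groups the spread was wide, from 0.276 in ΔEcad males to 0.932 in Ecad males for Ctnnal1, from 0.057 in ΔEcad males to 0.883 in Ecad males for Arvcf, and from 0.128 in Ecad males to 0.696 in ΔEcad females for Ctnnbip1. The score itself left a gap between 14 tumours at or under 1.45 and 18 at or over 4.07. Among the 14 lower tumours r was -0.067, -0.115 and -0.046 for Ctnnal1, Arvcf and Ctnnbip1, and among the 18 higher ones 0.638, 0.769 and 0.465, and whether r differed between the ranges was not tested. The 3 genes had positive r with each other among the 14 lower tumours, at r = 0.833 for Ctnnal1 with Arvcf, 0.679 for Arvcf with Ctnnbip1 and 0.548 for Ctnnal1 with Ctnnbip1, values that are descriptions with no test.

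Beta-catenin RNA ran the other way over all tumours, with r = -0.382 and rho = -0.504 against the keratinocyte score (raw permutation p 0.0309 and 0.0036, adjusted 0.0706 and 0.0096), and passed on rho only. Without the 2 farthest tumours r was -0.365, and with values centred on group means -0.197. Within groups r was -0.860 (Ecad) and 0.080 (ΔEcad) in males and -0.119 (Ecad) and -0.139 (ΔEcad) in females. Ctnna1 gave r = -0.416 and rho = -0.408 (raw permutation p 0.0175 and 0.0208, adjusted 0.0466 and 0.037), r = -0.372 without those tumours, and 0.149 in Ecad females against -0.342 to -0.653 in the other groups. This relation no longer passed on r in 16 of 32 fits with 1 tumour left out (adjusted permutation p up to 0.118, without ΔEcad female 2), and r was -0.262 on log2(TPM + 1). Ctnna3, in sparse counts, gave r = 0.53 and rho = 0.424 (raw permutation p 0.00204 and 0.0161, adjusted 0.0104 and 0.0323). With the melanocytic score, Ctnnb1 gave r = 0.443 and rho = 0.353 (raw permutation p 0.00782 and 0.0491, adjusted 0.025 and 0.0786). The r values with that score depended on the library labelled ΔEcad male 7, which lies far below all others. Leaving it out turned r from -0.219 to -0.616 for Arvcf (adjusted permutation p = 0.00144), from -0.154 to -0.582 for Ctnnal1 (adjusted permutation p = 0.002) and from -0.303 to -0.513 for Ctnnbip1 (adjusted permutation p = 0.00978), and took Ctnnb1 from 0.443 to 0.376 (adjusted permutation p = 0.0543). Their rho over all 32 tumours was -0.595, -0.545 and -0.425 for Arvcf, Ctnnal1 and Ctnnbip1 (raw permutation p 0.0004, 0.00165 and 0.0161, adjusted 0.0016, 0.00528 and 0.0323). Keratinocyte and melanocytic scores share libraries and depth with the catenin values, and tumour content was not manipulated, so which cells held the transcripts was not tested.

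**Figure D4:**
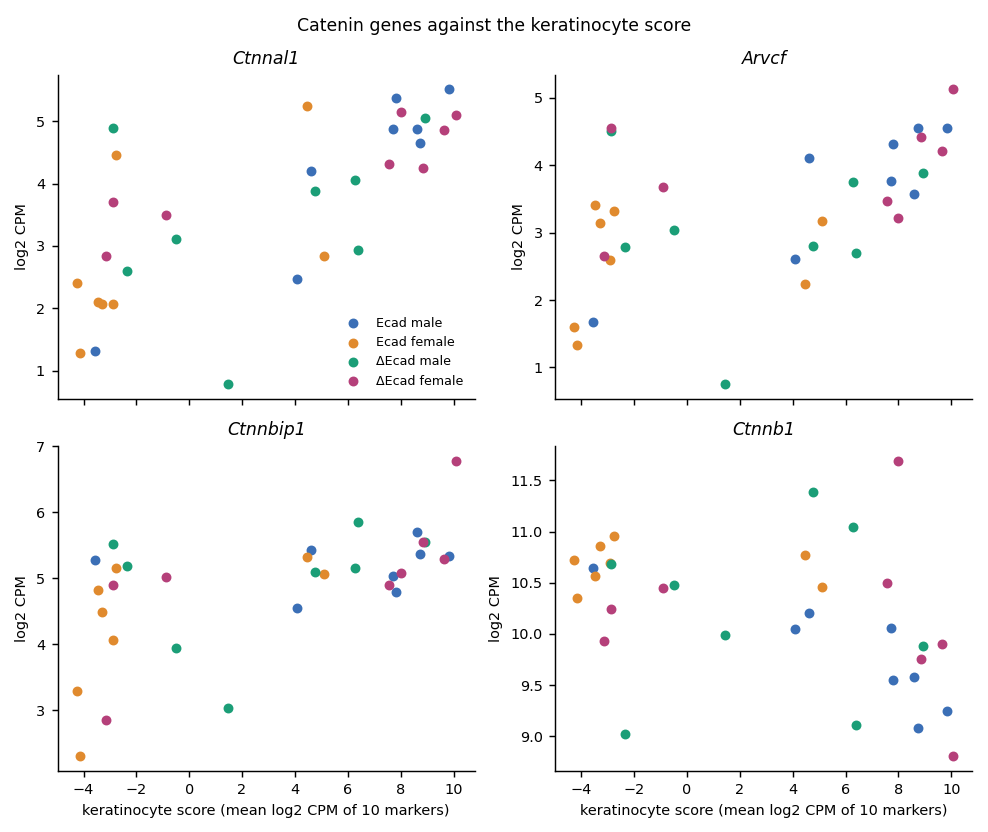
Log2 CPM of Ctnnal1, Arvcf, Ctnnbip1 and Ctnnb1 (vertical axes) against the keratinocyte score (horizontal axis, log2 CPM averaged over 10 markers) in 32 tumours, coloured by group. Among the 18 tumours at or over 4.07, r was 0.638, 0.769 and 0.465 for the first 3 genes and -0.528 for Ctnnb1.

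Because Ctnnal1, Arvcf and Ctnnbip1 moved together, the 250 bases before their first start in the RefSeq table (GRCm38.p6, 5′ to 3′ on the gene's strand) are shown, with GC boxes (GGGCGG on either strand) in capitals.
Ctnnal1, chr4:56865212-56865461, minus strand: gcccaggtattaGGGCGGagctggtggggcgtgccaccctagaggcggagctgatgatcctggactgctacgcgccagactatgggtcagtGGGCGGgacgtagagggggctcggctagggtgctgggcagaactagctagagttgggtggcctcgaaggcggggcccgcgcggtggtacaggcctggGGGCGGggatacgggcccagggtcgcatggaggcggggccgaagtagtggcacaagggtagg
Arvcf, chr16:18347932-18348181, plus strand: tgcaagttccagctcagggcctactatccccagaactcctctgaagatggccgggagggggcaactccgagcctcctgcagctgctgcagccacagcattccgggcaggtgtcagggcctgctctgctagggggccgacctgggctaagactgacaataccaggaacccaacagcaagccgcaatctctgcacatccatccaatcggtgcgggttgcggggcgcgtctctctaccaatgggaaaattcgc
Ctnnbip1, chr4:149517991-149518240, plus strand: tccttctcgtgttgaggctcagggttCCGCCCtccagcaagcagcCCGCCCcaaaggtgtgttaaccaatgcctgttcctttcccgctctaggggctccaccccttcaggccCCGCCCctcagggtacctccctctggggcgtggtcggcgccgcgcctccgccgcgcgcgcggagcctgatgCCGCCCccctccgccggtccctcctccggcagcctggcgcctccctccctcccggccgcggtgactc
Ctnnal1 held 3 GC boxes, starting at -238, -159 and -62 from the start, Ctnnbip1 held 4, at -224, -205, -138 and -67, and Arvcf held 0. Over 32851 windows of the same length, 32.74% held at least 1. The share of G and C bases was 68.4%, 60.8% and 72.4% in Ctnnal1, Arvcf and Ctnnbip1. None of the 3 windows held TCAAAG (the TCF and LEF core, in 13.83% of windows), TGANTCA (the AP-1 site, in 6.75%) or TCANGTGA (the MITF type of E-box, in 3.45%), each searched on both strands, so no match overlapped one of another motif. These counts hold for the windows shown. The table lists 2 further starts of Arvcf, whose windows hold 1 TCF and LEF core (chr16:18380533-18380782) and 3 GC boxes (chr16:18392313-18392562), and 1 further start of Ctnnbip1 with 0 matches. A match or its absence is a description of these letters only.

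The genes whose pattern was most like each member, by Pearson r of log2 CPM over 32 tumours among 17716 other genes, were given by rule and without a test. For Ctnnb1 they were Fbxl7 (r = 0.81), Sacm1l (0.80) and Nipa2 (0.80), and for Ctnna1 they were Nars (0.72), Msn (0.69) and Lrrc8b (0.68). Arvcf was most like Wnt6 (0.84), Shank1 (0.82) and Efnb1 (0.82). Ctnnal1 was most like Zfp185 (0.85), Bbox1 (0.83) and Ly6g6e (0.82), and Ctnnbip1 most like Cbr3 (0.86), Gnmt (0.79) and Mir99ahg (0.79). Ctnnd1 had 0610012D04Rik (0.77), Rfng (0.77) and Sf3a2 (0.77), Ctnnd2 had Smagp (0.76), Sirpa (0.75) and Slc13a5 (0.74), and Ctnna3 had Prom2 (0.80), Pex5l (0.78) and Dsg2 (0.76). All points share library and depth.

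The cadherins divided the members in the same description. Cdh2, the gene of N-cadherin, had r = 0.61 with Ctnna1, rank 24 of 17716, and r = 0.62 with Ctnnb1, rank 308. With the other members its r was negative, at -0.60 (Ctnnbip1), -0.51 (Arvcf), -0.47 (Ctnnd1), -0.44 (Ctnnal1), -0.39 (Ctnna3) and -0.21 (Ctnnd2). Cdh2 and Ctnna1 both lie on chromosome 18, and whether this bears on their r was not tested. Cdh1 had r = 0.61 with Ctnna3, whose counts were sparse, and r = 0.55 with Ctnnal1, against r = -0.19 with Ctnnb1 and r = -0.21 with Ctnna1. Its r was 0.49 with Ctnnbip1, 0.39 with Arvcf, 0.20 with Ctnnd2 and 0.04 with Ctnnd1. Jup, the gene of plakoglobin, had r = 0.65 with Arvcf, rank 198, and r = 0.63 with Ctnnal1, against r = -0.23 with Ctnnb1. Within a tumour, Jup was below Ctnnb1 on the TPM scale in all but ΔEcad female 2, with a median ratio of 0.084 and a highest of 1.46. Ctnnb1 exceeded the summed TPM of 9 classical cadherins in 31 of 32 tumours, with a median ratio of 3.55. The leading cadherin was Cdh1 in 6 of 8 Ecad males, 1 of 8 Ecad females and 2 of 8 ΔEcad females. It was Cdh19 in 2 Ecad males, 6 Ecad females, 5 ΔEcad males and 2 ΔEcad females. Cdh5, the endothelial cadherin, led in 1 Ecad female, 2 ΔEcad males and 3 ΔEcad females, and Cdh11 in 1 ΔEcad male and 1 ΔEcad female.

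The partners of the catenins were not called by edgeR either. It called 1.2% of all genes between female genotypes and 0% between male genotypes. Between the sexes it called 0.0508% in Ecad and 0.0395% in ΔEcad tumours, and 0% in the interaction. By edgeR, 0 of 9 classical cadherins, 0 of 12 other junction linkers (such as Jup, Pkp4, vinculin and afadin), 0 of 10 genes of the destruction complex and 0 of 9 nuclear partners (TCF and LEF factors, Bcl9, Pygo and Zbtb33) passed in any of the 5 comparisons. Over the 5 comparisons 2 to 4 cadherins, 0 to 4 linkers, 0 to 3 destruction complex genes and 0 or 1 nuclear partners had an unadjusted p under 0.05, beside 8.81% to 17.7% of all genes. Between female genotypes 3 of 9 cadherins, 4 of 12 linkers, 1 of 10 destruction complex genes and 1 of 9 nuclear partners had an unadjusted p under 0.05, against 15.3% of all genes, and the list medians were 0.54, -0.01, -0.10 and -0.05 beside -0.02 for all genes. DESeq2 called Cdh3, Camsap3 and Ajuba there, all higher in ΔEcad, Cdh1 as lower between male genotypes, Cdh3 and Camsap3 as lower in Ecad females than males, and Cdh3, Cdh1, Camsap3 and Ajuba in the interaction. The shares of all genes that DESeq2 called in these comparisons were 7.23%, 0.119%, 5.77% and 6.91%, in that order. Of the 10 keratinocyte markers, DESeq2 called 8 (higher in ΔEcad females), 0, 5 (lower in Ecad females) and 6 (above 0) in the same order. Which cells held the Cdh3, Camsap3 and Ajuba transcripts was not tested. Between the sexes in ΔEcad, DESeq2 called no gene of these lists, against 0.135% of all genes. limma voom called no gene of these lists in any comparison, against 0% to 0.519% of all genes. Cdh3, the gene of P-cadherin, stood at 3.25 on the log2 scale (SE 1.18, edgeR adjusted p 0.139) between female genotypes, Jup 1.63 (SE 0.72, edgeR adjusted p 0.252), Cdh2 -0.56 (SE 0.50, edgeR adjusted p 0.674), Pkp4 -0.06 (SE 0.53, edgeR adjusted p 0.981) and Cdh1 -0.002 (SE 0.87, edgeR adjusted p 0.999). Between male genotypes Cdh1 was at -3.33 (SE 0.96, edgeR adjusted p 0.365) and Pkp4, a p120 relative, at 1.29 (SE 0.54, edgeR adjusted p 0.446). The 10 keratinocyte markers were all lower there too, with a median of -1.76 and 0 at an unadjusted p under 0.05. Their part in the Cdh1 value was not tested. Among Ecad tumours all 10 destruction complex genes had values above 0 in females against males, with a median of 0.25 beside 0.05 for all genes and 3 at an unadjusted p under 0.05 (16% of all genes), and none passed the threshold.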

How the data were processed

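The authors prepared stranded poly(A)-selected libraries, mapped paired reads with STAR to GRCm38.p5 with GENCODE M13, and deposited raw counts per gene and TPM. Batch correction is described where applicable, without saying whether these tumours were corrected, and whether counting used the strand is not given in the sources used here. The submitters' processing notes also name FastQC 0.11.5. The deposited TPM values were the counts rescaled by 1 length per gene. Symbols and coordinates came from GENCODE M21, which named 50376 of 50600 identifiers. The floor of 3 counts covers counting error only, whereas SD and SE hold the spread between tumours.

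Groups came from the labels. Counts were tested with edgeR 4.0.16 (robust quasi-likelihood, TMM, filterByExpr by group, 1 coefficient per group, two-sided), SE being derived from the test statistic. Log2 CPM used a prior count of 1. Alternatives were DESeq2 1.42.0, limma 3.58.1, other scalings, filters and samples, a block for the tumour number, covariates for marker scores, and each tumour left out. The omission of 3 libraries together was chosen after seeing the data. Scripts were tested on simulated data. The members and lists were chosen with earlier results of these data known. Named were all 9 members, Cdh1, Cdh2, Cdh3, Jup, Pkp4, called list genes (up to the 5 with the smallest p), and the 3 most similar genes of each tested member, and Krt5, Cdh5, Cdh11, Cdh19, Camsap3 and Ajuba were named after their values were seen. Promoters were found for 8 of the 9 members in RefSeq and used for 3. R 4.3.3 and Python 3.11.15 were used.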

Additional observations from a re-analysis of the deposited data

Results flagged for a closer look

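In 35 sets of 8 tumours with values above 0, each a member in a group, 5 held a tumour far from the other 7, by the gap to its nearest neighbour over the range of the group. About 1 in 20 sets would show this by chance if the values were normally distributed. TPM values with several at 0 need not be, so 5 of 35 cannot be read as an excess. Ctnnbip1 was at 112.4 TPM in ΔEcad female 2, against 41.7 TPM in the next tumour. Ctnnd2 was at 21.4 TPM in Ecad female 8, against 6.27 TPM, and at 9.45 TPM in Ecad male 1, against 3.23 TPM. Ctnna2 was at 0.06 TPM in Ecad female 2, against 0 TPM, and at 0.1 TPM in ΔEcad female 3, against 0.02 TPM, values that rest on 3 and 10 counts. The same ΔEcad female 2 held the highest Arvcf and Ctnnd1 of its group and the highest keratinocyte score of all tumours, 10.1. No member's genotype difference differed between the sexes by the edgeR interaction test.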

How the results depend on the processing

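Fold changes of the members were recomputed under up to 11 alternatives, of which 399 kept their direction and side of the threshold, 30 reversed and 2 passed it, and with each tumour left out, where 1251 kept both and 29 reversed. Leaving out Ecad female 8 took the Ecad female mean of Ctnnd2 from 4.21 to 1.75 TPM. The cause of each change was not tested. DESeq2 called 1 member (Arvcf) between female genotypes and 1 in the interaction. Genes called overall numbered 213, 0, 9, 7 and 0 (female genotypes, male genotypes, sexes in Ecad, sexes in ΔEcad, interaction) and became 1281, 21, 1023, 24 and 1225 with DESeq2, 1, 0, 92, 6 and 0 with limma voom, 322, 0, 9, 7 and 201 with RLE size factors, 10, 1, 16, 7 and 2 with marker covariates, 1, 9, 10, 6 and 0 on log2(TPM + 1), 569, 0, 13, 8 and 0 without the 3 libraries, a choice made after seeing the data, and 1, 0, 11 and 0 with only the tumours compared, a setting that for the interaction is the reported model.

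Labels give the groups shared replicate numbers without saying what same-numbered tumours had in common. Correlations of same-numbered tumours ran from -0.547 to 0.425 over 48 pairs, 17 over 0.1, and 1 of 32 tumours correlated best with its own number. With the number as a replicate block 1, 0, 8, 7 and 0 genes and no member were called, and Ctnna1 between female genotypes turned to -0.052.

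Other reversals were of small or noisy differences. Between female genotypes Ctnna1 was -0.13 with voom, -0.0171 on log2(TPM + 1) with and without the filter, -0.0175 on log2(TPM + 0.1), and -0.0347 without the 3 libraries, Ctnna3 -0.59 with covariates, and Ctnnd2 1.93 with voom and 0.40 on log2(TPM + 0.1). Between male genotypes Ctnna1 was 0.0715 with voom, Ctnna3 0.40 with covariates and 0.18 without the 3 libraries, Ctnnal1 0.0453 and Ctnnbip1 0.0346 with covariates. Between the sexes in Ecad, Ctnna1 was -0.20 with covariates, Ctnna3 -0.52 with voom, and Ctnnd2 -2.36 with voom, -0.18 on log2(TPM + 1) with and without the filter and -0.83 on log2(TPM + 0.1). In ΔEcad, Ctnnb1 was 0.13 on log2(TPM + 1) with and without the filter and on log2(TPM + 0.1), and 0.029 without the 3 libraries, Ctnna1 -0.0031 with voom, and Ctnnal1 -0.0111 and Ctnnbip1 -0.0812 with covariates. For the interaction Ctnna1 was -0.20 with voom, Ctnna3 -0.99 with covariates and Ctnnd2 1.01 with voom.

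Leaving out each tumour reversed Ctnna1 (-0.14 to 0.10) and Ctnnd2 (-1.86 to 0.0192, without Ecad female 8) between female genotypes, Ctnna3 (-0.32 to 0.15) and Ctnnbip1 (-0.22 to 0.10) between male genotypes, Ctnna1 (-0.035 to 0.19) and Ctnnd2 (-0.28 to 1.5, without Ecad female 8) between the sexes in Ecad, and Ctnnb1 (-0.45 to 0.14) and Ctnnbip1 (-0.24 to 0.36) in ΔEcad. Of 16 relations with marker scores 6 passed on r, against 3 on log2(TPM + 1), 10 without the 3 libraries, and 4 (without ΔEcad female 2) to 10 (without ΔEcad male 7) with 1 tumour left out. Of 28 relations between members 6 passed, against 4 on log2(TPM + 1), 8 with values centred on group means, 5 without the 3 libraries and 4 to 8 with 1 tumour left out. Sparse counts limit Ctnna2 and Ctnna3.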
